A study of Mus musculus with 46 samples.

Results

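The genes described here encode the proteins of the cytoplasmic ribosome. They were taken by symbol: Rpl or Rps followed by a number, with the stalk genes Rplp0, Rplp1 and Rplp2 and the gene Rpsa, without the Rps6k kinases and pseudogenes, and with at least 10 counts summed over the actinomycin D libraries. All 84 matching genes of the 21812 in the actinomycin D table reached that minimum. They comprised 77 core genes (46 of the large and 31 of the small subunit) and 7 paralogs, second copies that encode a close relative of a core protein. Of the paralogs, Rpl39l, Rpl3l and Rpl22l1 are set against the core genes below, and Rpl10l, Rpl7l1, Rpl36al and Rps27l are the others.

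RNA was sequenced in 46 libraries of mouse expanded potential stem cells (EPSC), pluripotent cells cultured so that they can also give extraembryonic lineages, and of their derivatives. The study asked how the transcriptome and RNA stability differ between cell states, with primitive endoderm (PrE), which parts from the epiblast in the blastocyst, as the state of interest. The 46 libraries formed 19 groups in 7 count tables. Untreated EPSC had 2 libraries. EPS (EPSC) and PrEdiff (EPSC grown in a medium that induces PrE) each had 2 libraries after 0, 1, 2 and 3 h of actinomycin D, a drug that blocks transcription. PrEdiff cells with a conditional knockout (cKO) of Virma, a subunit of the enzyme complex that writes N6-methyladenosine on mRNA, were set against their wild type (WT), with 2 libraries each. In the same design were a cKO of Mettl3, the catalytic subunit of that complex, against WT, and the siRNA siIgf2bp3, against a reader protein of the mark, with the control siNC. PrEdiff cells sorted for the surface marker CD140 gave 2 CD140+ libraries (PrE-E) and 2 CD140- libraries (EPI-E). Embryoids made from EPSC and GBL-1 cells and grown for 5 days gave 6 libraries of visceral endoderm (VE), the PrE descendant that wraps the epiblast, and 6 of epiblast (EPI), parted with pronase E. The labels gave no clone, Cre driver or number of cultures.

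Ribosomes carry each core protein in about equal amounts, so cells make them in parallel. Most of their mRNAs are short, abundant and stable, and begin with a 5′ terminal oligopyrimidine (TOP) tract, a C followed by a run of C and T (U in the RNA), through which mTOR signalling and the binding protein Larp1 set their translation and storage. Some core genes have paralogs with restricted expression: Rpl39l and Rpl10l are known from male germ cells, Rpl3l from heart and skeletal muscle, and Rpl22l1 from blood development.

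The start of a gene's RNA is shown because it holds the TOP tract. Of the 84 genes, 64 had an entry among RefSeq promoters of GRCm38.p6, and 20 were not matched. Each window below runs 5′ to 3′ on the gene's strand, from 10 bases before the annotated start to 20 bases from it, and capitals mark the unbroken run of C and T at the start where that run opens with C and holds at least 4 more C or T.
Rplp2 (chr7:141447641-141447670, + strand): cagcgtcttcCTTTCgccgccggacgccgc
Rpl35a (chr16:33056472-33056501, + strand): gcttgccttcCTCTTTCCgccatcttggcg
Rps6 (chr4:86857348-86857377, - strand): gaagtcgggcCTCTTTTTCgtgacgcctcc
Rps18 (chr17:33955646-33955675, - strand): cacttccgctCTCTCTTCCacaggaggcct
Rps27 (chr3:90213629-90213658, - strand): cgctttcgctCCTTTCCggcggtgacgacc
Rpl15 (chr14:18270967-18270996, - strand): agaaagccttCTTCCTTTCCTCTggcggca
The next windows are of genes that lacked such a run at that base, and hold no capitals.
Rpl39 (chrX:37085203-37085232, - strand): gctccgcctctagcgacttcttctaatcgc
Rpl39l (chr16:10170218-10170247, + strand): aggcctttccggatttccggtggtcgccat
Rpl22l1 (chr3:28805498-28805527, + strand): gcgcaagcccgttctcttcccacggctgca
Rpl10l (chr12:66284382-66284411, - strand): cctccattttgcggctggcggtgggcacgc

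A C followed by at least 4 C or T at the annotated start was found in 13 of the 64 matched genes (20.3%). All of them were core genes (13 of 57, 22.8%), and the 7 paralogs had 0. Counted by promoter, 13 of 76 promoters of these genes (17.1%) held it, beside 823 of all 32851 mouse promoters (2.51%), read on the gene's strand. The match asks for the exact annotated base, so a gene whose listed start is a few bases off is missed, and no match says only that these letters are not at that base. Members of the family have many processed pseudogenes, and the sources used here do not say how the authors' counting treated reads shared with them, so a low level of a single member is uncertain. That holds most for Rps10, which at 704 counts over the 16 actinomycin D libraries lay far below every other core gene; the next lowest core gene, Rpl13a, had 30474.

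Total counts per library ran from 6854433 to 22280769. Nothing in the labels says that libraries of a group came from separate cultures, so p-values measure only the spread between these libraries, which may be technical, above all in the actinomycin D table, where replicate pairs lay close to counting noise. Virma mRNA was at 106.7 and 109.8 counts per 1000000 (CPM) in WT and at 67.7 and 54.6 in cKO (log2 difference -0.82 ± 0.12 SE, edgeR adjusted p = 1.12e-06). Mettl3 mRNA (log2 difference -0.02, adjusted p = 0.978) and Igf2bp3 mRNA (0.11, adjusted p = 0.577) were not lower in the libraries labelled Mettl3 cKO and siIgf2bp3, so directions in those tables are given for libraries by label. The PrE markers Gata6, Gata4, Sox17, Sox7, Pdgfra and Dab2 were all higher in PrE-E, VE and PrEdiff, and of 6 pluripotency markers 5, 6 and 6 were lower there. Fewer cells of a type and less RNA per cell cannot be told apart in these bulk samples.

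Ribosomal protein genes took 3.38% to 17.7% of all counts in a library. The share was 9.17% and 9.18% in the EPS libraries and 9.58% and 9.63% in the PrEdiff libraries at 0 h, and 5.5% and 5.52% in untreated EPSC. In the sorted cells it was 3.38% and 3.43% in PrE-E and 4.30% and 4.34% in EPI-E. In embryoids it was 5.73% to 6.5% in VE (mean 6.1% ± 0.261 SD, n = 6) and 7.72% to 8.41% in EPI (8.07% ± 0.229, n = 6). The endoderm libraries were thus lower in both of those tables, with no overlap. Virma cKO libraries, at 3.58% and 3.68%, also lay below their WT at 4.21% and 4.28%. The libraries labelled Mettl3 cKO (5.59% and 5.79%) lay just above WT (5.34% and 5.57%), and those labelled siIgf2bp3 (5.73% and 5.93%) overlapped siNC (5.69% and 5.99%).

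The level of one core gene against another varied with the table more than with the groups within it. For each library, every core gene's CPM was divided by the median of the 77 core genes. The order of the 77 genes fell into 3 sets of tables: actinomycin D, EPSC, Mettl3 and Igf2bp3; Virma and sorted cells; and embryoids. Spearman's rho across the 77 genes between tables was 0.82 to 0.97 within a set (7 pairs of tables) and 0.24 to 0.49 between sets (14 pairs), as a description of genes, which are not independent replicates. Between single libraries rho was 0.94 to 1.00 within a table. Rpl12, at the base of the stalk, lay 2.73 log2 units above the core median in the Virma table and 1.05 below it in the embryoid table. Rpl29 ran from -2.03 in the Igf2bp3 table to 1.78 in the sorted cells. Rpl6 kept its place within 0.36 log2 units over all tables. The range over tables was above 2 log2 units for 21 core genes and below 1 for 19, with a median of 1.72. The labels name 2 library kits without saying which made which library, so kit, table and cell state cannot be told apart across tables. From here on differences are taken within a table, and levels listed for different tables are not set against each other. The Virma and Mettl3 responses are compared, each taken against the WT of its own table. Per kilobase of transcript, the core median was 2050 CPM in the actinomycin D table, treated libraries included, and 951 in the embryoid table. Rps10 was the lowest core gene in all 7.

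**Figure D1:**
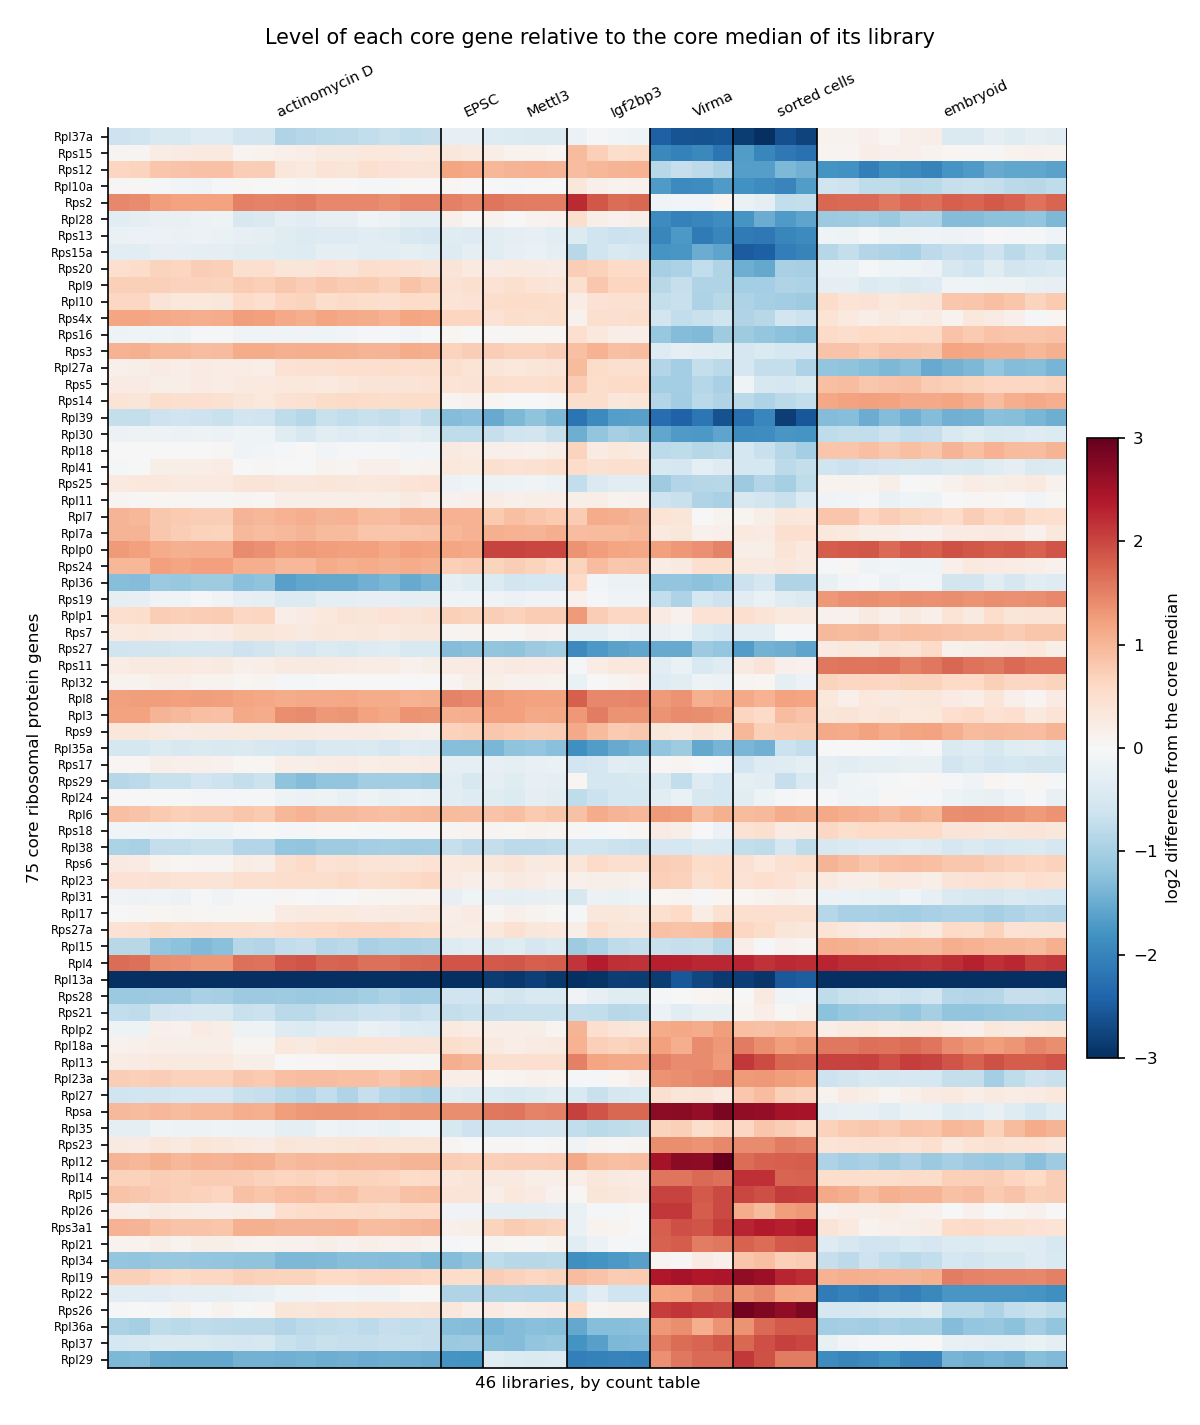
Log2 level of 75 core genes (rows, ordered by their mean in the Virma and sorted tables minus that in the first 4 tables; Rps10 and another gene are left out and the colour scale ends at 3 units either way) relative to the core median of the same library, in 46 libraries (columns) with lines between tables. Colours change at the borders of the Virma and sorted tables and of the embryoid table rather than between groups of a table: Rpl12 is dark red in the Virma table and blue in the embryoid table.

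In actinomycin D these mRNAs rose relative to the other transcripts, in both states up to 2 h and then differently. A rise here is a rise in the share of RNA that remains, because scaling is within a library, and the contrasts with 0 h share their 0 h libraries. Rplp2, an acidic protein of the stalk that recruits elongation factors, was at 787.6 and 792.4 CPM in EPS at 0 h, 1875 and 1874 at 1 h, 2614 and 2545 at 2 h and 1235 and 1239 at 3 h. In PrEdiff it was at 612.2 and 600.4 CPM at 0 h, 951.5 and 962.5 at 1 h, 1471 and 1459 at 2 h and 1322 and 1298 at 3 h. Rplp2 thus peaked at 2 h in both states, and fell back far more in EPS. At 2 h its fitted level was 3.26-fold that of 0 h in EPS (log2 1.71 ± 0.02 SE, edgeR adjusted p = 5.02e-234) and 2.42-fold in PrEdiff (1.27 ± 0.02, adjusted p = 1.71e-188).

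The core genes moved as a block. In EPS the median log2 difference of the 77 core genes from 0 h was 0.99 at 1 h, 1.35 at 2 h and 0.67 at 3 h. At each time 83 of 84 genes were higher at an adjusted p below 0.05, Rps10 being the other, where 32.4%, 34.4% and 43.1% of all 14127 genes tested were higher. In PrEdiff the core medians were 0.61, 1.12 and 1.13, with 82, 83 and 83 of 84 higher against 30.4%, 37.7% and 37.5% of all genes. The middle 50% of core genes lay between 1.26 and 1.42 in EPS and between 1.06 and 1.19 in PrEdiff at 2 h. From 2 h to 3 h, 81 of 84 genes fell in EPS (core median -0.71; 31.6% of all genes fell), the steepest Rplp2 (-1.06) and the least steep core gene Rpl15 (-0.26), a large-subunit protein. Over the same hour PrEdiff had a core median of 0.00, with 16 genes higher and 19 lower (18.4% and 21% of all genes).

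The response differed between the states in a direction that turned with time. The rise from 0 h was smaller in PrEdiff for 80 of 84 genes at 1 h (core median of the difference -0.38; 14.6% of all genes were lower) and for 77 at 2 h (-0.24; 9.45%). At 3 h it was larger in PrEdiff for 79 genes (0.44; 22.9% of all genes were higher) and smaller for 1. A straight line through the 4 times hides this turn: the slope was 0.25 log2 units per hour at the median in EPS, with 7 genes called higher (18.2% of all genes), and 0.39 in PrEdiff, with 76 (20.3%). The slopes differed for 0 of 84 genes by edgeR's test (1.27% of all genes in either direction), also at an unadjusted p under 0.05 and by DESeq2. Without the EPS 3 h libraries the EPS slope rose to 0.67 with 83 genes called, and 54 genes then had a lower slope in PrEdiff (median difference -0.29), though this sets 0 to 2 h in EPS against 0 to 3 h in PrEdiff. With both states kept to 0 to 2 h, 3 genes had a lower slope in PrEdiff. The share of all genes called in these reduced fits is not given here, so their counts cannot be set against it. Leaving out either EPS 3 h library gave 65 and 61 called genes in EPS, either EPS 0 h library 1 and 1, EPS 1 h replicate 1 gave 11, and leaving out either PrEdiff 0 h library left 21 in PrEdiff. Scaling to library totals moved the median slope of all genes by -0.10 in EPS and -0.14 in PrEdiff, which left 0 called ribosomal protein genes in EPS and 41 in PrEdiff. The share of all genes called with library totals is not given either. The median of these genes above that of all genes stayed at 0.18 and 0.36, against 0.19 and 0.37. Scaling shifts all genes of a library alike, so this gap could hardly move and is no test of it.

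Apart from Rps10, the smallest rises at 2 h were those of paralogs. Rpl7l1, a relative of Rpl7 known from ribosome assembly, was at 300.2 and 297.6 CPM in EPS at 0 h and at 377.6 and 373.4 at 2 h (log2 0.33 ± 0.02). In PrEdiff it went from 133.4 and 136.6 to 170.9 and 171.7 (0.34 ± 0.03). Rpl10l, the autosomal copy of X-linked Rpl10, rose by 0.76 ± 0.05 in EPS and 0.49 ± 0.09 in PrEdiff over 2 h, and Rpl39l by 0.87 ± 0.09 and 0.77 ± 0.14. These 3 lay under the lower core quartile in both states, and Rpl22l1, at 1.28 ± 0.02 and 1.04 ± 0.02, lay close to it. Rplp0, the scaffold of the stalk, rose by 1.16 ± 0.02 in EPS and 1.03 ± 0.02 in PrEdiff. Genes with the C-opening pyrimidine run shown above had a median of 1.41 in EPS at 2 h, beside 1.34 for the other matched core genes, and 1.15 beside 1.10 in PrEdiff. Of 19 other mRNAs known to carry TOP tracts (elongation factors, Tpt1, Npm1 and the like), 17 were called with a positive slope in PrEdiff (20.3% of all genes) and 9 in EPS (18.2%), and 0 with a negative one in either. Some genes outside this family also rose. By adjusted p, the first mitochondrial ribosomal protein genes at 2 h in EPS were Mrpl21 (1.27), Mrpl13 (1.26) and Mrpl11 (1.27). The first ribosome biogenesis factors were Nhp2 (1.32), Fbl (1.11) and Gnl3, which fell (-0.80). By slope in EPS, the first mitochondrial ribosomal protein gene, Mrps2, fell (-0.35 per hour), while Mrpl39 (0.16) and Mrps33 (0.25) rose. The first 3 biogenesis factors by slope in EPS, Wdr43 (-0.43), Rrs1 (-0.47) and Gnl3 (-0.56), all fell. Counts over these lists are not given here. Over 13780 genes, slope and transcript length had a rho of -0.17 in EPS and -0.44 in PrEdiff. The part of length was not tested.

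**Figure D2:**
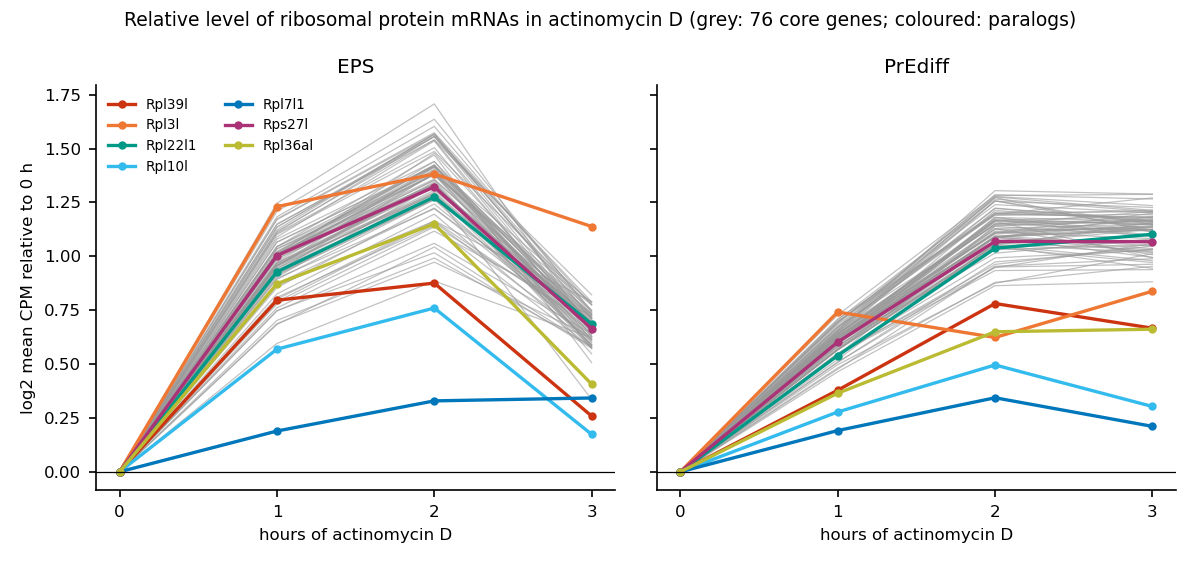
Log2 level relative to 0 h (vertical axis) against hours of actinomycin D (horizontal axis) in EPS and PrEdiff; grey lines are 76 core genes without Rps10, coloured lines are paralogs, each point a mean of 2 libraries. Core genes climb together to a median of 1.35 in EPS at 2 h and drop to 0.67 at 3 h, while in PrEdiff they stay at 1.13, and Rpl7l1 lies lowest at 2 h.

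At 0 h PrEdiff and EPS differed little in the core genes and more in most paralogs. Of 84 genes, 60 were lower and 12 higher in PrEdiff (edgeR adjusted p below 0.05), where 42.9% of all 14127 genes were lower and 37.6% higher, so most genes of any kind were called in these closely matched libraries. The core median was -0.13, with quartiles of -0.23 and -0.03, and the median of all genes was -0.05. These small differences depend on the scaling. With library totals the median of all genes moved up by 0.18, 25 ribosomal protein genes were lower and 45 higher, and their median was 0.05 in place of -0.13, as their larger share of counts in PrEdiff also shows. The share of all genes called with library totals is not given here. The median of these genes lay 0.08 below that of all genes under both scalings. Scaling shifts all genes of a library alike, so this gap is no test of it.

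Among paralogs, Rpl10l was at 36.5 and 36.9 CPM in EPS and 14.1 and 13.7 in PrEdiff (log2 difference -1.39 ± 0.07 SE). Rpl7l1 was at 300.2 and 297.6 CPM in EPS and 133.4 and 136.6 in PrEdiff (-1.15 ± 0.03). Rpl39l was at 10.9 and 11.5 CPM in EPS and 4.75 and 4.65 in PrEdiff (-1.23 ± 0.12). All 3 were lower in PrEdiff by more than any core gene, with no overlap. Rpl36al, the autosomal copy of Rpl36a, fell by 1.23 on low counts (66 and 57 in EPS, 22 and 22 in PrEdiff). Rpl22l1 fell by 0.29 (308 and 309 against 251 and 255.1 CPM). Rpl3l, at a mean of 0.79 CPM in EPS (15 and 19 counts) and 1.29 in PrEdiff (23 and 26 counts), was higher (0.64, edgeR adjusted p = 0.0381). That call was removed by 6 of the alternatives (adjusted p 0.0504 to 0.174). The core genes with the largest falls were Rps29 (-0.57), Rps12 (-0.48), Rpl36 and Rplp1 (-0.43 each) and Rpl37a (-0.40). The other stalk genes Rplp2 and Rplp0 fell by 0.38 and 0.13. The largest rises were in Rps26 (0.23), Rpl26 and Rpsa (0.18 each), Rpl13a (0.17), Rpl27a (0.16) and Rps6 (0.14), the substrate of the S6 kinases. Of the X-linked genes, Rpl39 (-0.22), Rps4x (-0.19) and Rpl10 (-0.10) fell and Rpl36a was at 0.01, not called. Of 9 fibroblast markers 7 were lower and 1 higher in PrEdiff, and their part in these differences was not tested.

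Sorted PrE-E cells had less ribosomal protein mRNA than EPI-E cells. Of 84 genes tested, 56 were lower and 4 higher in PrE-E, where 29.5% of all 12423 genes tested were lower and 28.3% higher. The core median was -0.32 (quartiles -0.44 and -0.12; all genes -0.03), and it was -0.32 for both the large subunit (31 of 46 lower) and the small subunit (20 of 31 lower). Rpl35a, a large-subunit protein whose human gene is mutated in Diamond-Blackfan anaemia, was at 106.1 and 104.2 CPM in PrE-E and 219.2 and 205.7 in EPI-E (log2 difference -1.01 ± 0.09 SE). Rps20, of the head of the small subunit, was at 99.2 and 97.2 in PrE-E and 172.9 and 172.4 in EPI-E (-0.81 ± 0.09). Both genes were lower in each PrE-E library, which the rule that named them requires. Rpl37a (-0.76), Rps15a (-0.75) and Rpl13a (-0.68) followed. Rplp0 fell by 0.47 and Rplp2 by 0.34, and Rplp1 was at -0.13 (adjusted p = 0.0831). Of the X-linked genes, Rpl36a (-0.62), Rps4x (-0.56) and Rpl10 (-0.22) fell, and Rpl39, at 0.27, was not called (adjusted p = 0.175).

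Some paralogs fell further in the sorted cells. Rpl10l was at 11.8 and 6.76 CPM in PrE-E and 91 and 73.7 in EPI-E (-3.14 ± 0.24, adjusted p = 1.44e-07). Rpl39l had 0 counts in both PrE-E libraries and 54 and 28 in EPI-E, so it was at least 13.4-fold lower against a floor of 3 counts per library (adjusted p = 0.0019; 0.0504 without EPI-E replicate 1). Rpl22l1 was at 3.78 and 4.38 CPM in PrE-E and 8.22 and 12.9 in EPI-E (-1.34 ± 0.43, adjusted p = 0.0175; 0.212 without EPI-E replicate 2). None of the 3 overlapped between the fractions. Rpl3l, at 0.309 and 0 against 2.19 and 1.52 CPM, passed narrowly (adjusted p = 0.0476) and was lost in 5 alternatives. Among the parents, Rpl3, a core protein near the catalytic centre, fell by 0.58, while Rpl22 (-0.08, adjusted p = 0.226), like Rpl39, was not called. The 4 genes called higher, Rps27l (0.36), Rps2 (0.19), Rpl29 (0.16) and Rpl14 (0.13), were 0 with library totals, RLE factors or DESeq2 or without EPI-E replicate 1, and 1 without PrE-E replicate 2. Fibroblast markers took 0.0336% and 0.0351% of counts in PrE-E and 0.0167% and 0.0173% in EPI-E, with 4 of 8 tested higher, and their part in the result was not tested.

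Embryoid VE also had less ribosomal protein mRNA, relative to EPI. Of 84 genes tested, 66 were lower and 2 higher in VE than in EPI, where 38% of all 11254 genes tested were lower and 34.5% higher. The core median was -0.33 (quartiles -0.49 and -0.17; all genes -0.05), with 36 of 46 large-subunit and 25 of 31 small-subunit genes lower. Rpl35a had a lowest, median and highest CPM of 434.0, 455.1 and 524.0 in VE and 720.4, 744.5 and 800.9 in EPI (log2 difference -0.70). Rps20 had 373.5, 446.6 and 473.2 in VE and 637.6, 690.0 and 778.3 in EPI (-0.67). Rpl37a had 416.5, 482.0 and 544.0 in VE and 780.7, 841.4 and 886.1 in EPI (-0.81). For these 3 genes every VE library lay below every EPI library, which the rule that named them requires. Rplp0 (-0.28) and Rplp2 (-0.31) fell and Rplp1 was at -0.11 (adjusted p = 0.0823). The X-linked Rpl36a (-0.48), Rps4x (-0.45) and Rpl39 (-0.34) fell, and Rpl10 was at 0.07 (adjusted p = 0.131). Rpl29 (0.23) and Rpl19 (0.11) were the 2 genes called higher; with library totals 0 were, and without VE replicate 2 there were 4. The 9 fibroblast markers were too low to be tested, at 0% to 0.00139% of counts.

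In the embryoids, Rpl10l and Rpl39l fell far more in VE than the core genes, and Rpl22l1 and Rpl7l1 less so. Rpl10l had a lowest, median and highest CPM of 10.0, 16.9 and 24.0 in VE and 163.3, 179.5 and 193.3 in EPI (-3.44 ± 0.15 SE, adjusted p = 1.72e-14). Rpl39l had 6.15, 8.54 and 12.6 in VE and 43.8, 53.6 and 57.6 in EPI (-2.56 ± 0.17, adjusted p = 2.65e-11). Rpl7l1 had 258.7, 291.8 and 324.0 in VE and 451.7, 468.9 and 489.3 in EPI (-0.69). The groups did not overlap for any of these, and the gap was widest for Rpl10l. Rpl22l1 had 204.6, 223.8 and 239.9 CPM in VE and 279.2, 308.1 and 313.8 in EPI (-0.44), a fall close to that of the core genes. Rpl3l was below 5 CPM throughout and fell by 2.22 ± 0.76 (adjusted p = 0.0127), with overlapping groups. Among the parents of the paralogs, Rpl3 fell by 0.21, like Rpl39, and Rpl22 was at -0.05 (adjusted p = 0.42).

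The 3 endoderm comparisons used separate libraries, and 30 of 84 ribosomal protein genes were lower in all of them. Of all 10691 genes tested in the 3, 1787 (16.7%) were lower in all. Among the 30, 26 were core genes. The 30 were 53.6% of the genes lower in PrE-E, 45.5% of those lower in VE and 50.0% of those lower in PrEdiff. These last shares count only genes already called lower, so 16.7% is not their comparison. The like shares over all genes are not given here. Part of this overlap rests on the small differences at 0 h: with library totals in every comparison 17 genes were lower in all 3 (16.4% of all genes), although 62 were lower in both PrE-E and VE, against 46 with TMM. No ribosomal protein gene was higher in all 3. Of the genes lower in PrE-E, 10 were higher in PrEdiff at 0 h, and so were 10 of those lower in VE. The scaling at 0 h moves these calls, and 37.6% of all 14127 genes were higher there. Shares over all genes are not given here for such opposite calls or for genes lower in both PrE-E and VE.

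**Figure D3:**
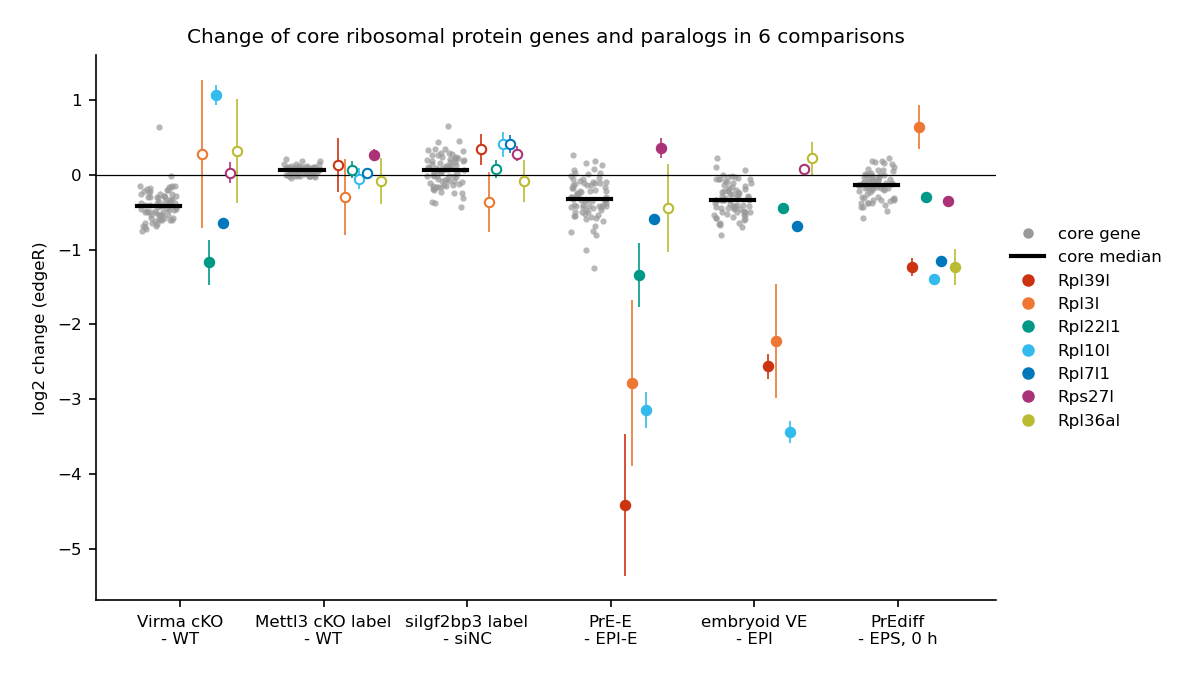
Log2 difference (vertical axis) of each core gene (grey points, black bar at their median) and each tested paralog (coloured, filled where called and open where not, with bars of 1 SE) in 6 comparisons (horizontal axis). Core genes centre below 0 for Virma cKO (-0.42), PrE-E (-0.32) and VE (-0.33) and near 0 for Mettl3 cKO and siIgf2bp3, and Rpl10l lies far above 0 for Virma cKO and far below it for PrE-E and VE.

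Nearly the whole family was lower in Virma cKO. Of 83 genes tested (Rpl39l had 1 count in 4 libraries and did not pass the filter), 72 were lower and 1 higher, where 18% of all 13113 genes tested were lower and 15.1% higher. The core median was -0.42 (quartiles -0.54 and -0.28; all genes 0.02), with 44 of 46 large-subunit and 26 of 31 small-subunit genes lower. Rpl7, a large-subunit protein, was at 499.7 and 470.9 CPM in WT and 283.4 and 292.0 in cKO (log2 difference -0.75 ± 0.07 SE, adjusted p = 7.48e-11). Rpl35a was at 164.6 and 172.5 in WT and 99.2 and 103.9 in cKO (-0.73 ± 0.09, adjusted p = 1.08e-07). Both were lower in each cKO library, which the rule that named them requires. Rpl11, which joins the 5S particle and also binds the p53 regulator Mdm2, fell by 0.70, and Rps7 and Rps18 by 0.68 each. The stalk genes Rplp2 (-0.36) and Rplp0 (-0.24) fell and Rplp1 was at -0.16 (adjusted p = 0.0884). The X-linked Rpl10 (-0.59), Rpl36a (-0.54), Rpl39 (-0.42) and Rps4x (-0.40) fell. Rps27 was at 131.2 and 126.7 CPM in WT and 135.0 and 121.1 in cKO and was not called, like Rpl12, Rplp1, Rps10, Rps15a, Rps19 and Rps24.

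The one gene that rose in Virma cKO was Rpl10l, at 40.7 and 44.2 CPM in WT and 91.6 and 87.4 in cKO (1.07 ± 0.13, adjusted p = 3.64e-08). Its parent Rpl10 fell in the same libraries. The largest fall was in Rpl22l1, at 20.5 and 14.6 CPM in WT and 9.30 and 6.07 in cKO (-1.17 ± 0.30, adjusted p = 0.00265), beside its parent Rpl22 at -0.16 (adjusted p = 0.0436). Rpl7l1 fell by 0.65 ± 0.07, Rpl3 by 0.43 and Rpl39 by 0.42 (adjusted p = 0.024; 0.0943 to 0.433 with DESeq2, with library totals, and without WT replicate 1 or cKO replicate 2), and Rpl3l (0.28, adjusted p = 0.87) and Rps27l (0.03) were not called. Genes with the pyrimidine run at their start were lower in 10 of 13 cases (median -0.37) and the other matched core genes in 41 of 44 (-0.44). With library totals the median of all genes moved up by 0.18, 44 genes of the family were lower and 1 higher, and Rpl22 went to 0.02. The share of all genes called with library totals is not given here. The median of the family lay 0.43 below that of all genes under both scalings. Scaling shifts all genes of a library alike, so this gap is no test of it.

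Marker genes of other cell states differed in the same libraries. All 6 PrE markers were lower in cKO (median -3.89), from 0.128% to 0.133% of counts down to 0.0143% to 0.0162%. All 9 fibroblast markers were higher (median 1.27), at 0.0837% to 0.0844% of counts in WT and 0.231% to 0.238% in cKO. The part of either in the fall of the ribosomal protein genes was not tested.

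The libraries labelled Mettl3 cKO showed almost no change. Of 84 genes tested, 1 was higher and 0 lower by edgeR (7 at an unadjusted p below 0.05), where 2.51% of all 13115 genes were higher and 1.44% lower. DESeq2 called 0. The core median was 0.06, and all 77 core genes lay between -0.04 and 0.21. The called gene, Rps27l, a paralog known as a p53 target, was at 94.1 and 99.9 CPM in WT and 117.8 and 114.4 in the cKO libraries (0.26 ± 0.08, adjusted p = 0.0493), and leaving out any library of the table removed the call. The 9 fibroblast markers were higher in these libraries too (median 0.54; 0.215% to 0.229% of counts in WT, 0.314% to 0.329% in cKO). The response to the label differed between the Virma and Mettl3 tables for 64 of 84 genes: 63 were lower in the Virma response and 1, Rpl10l, higher (median of the difference -0.42; 10.9% of all 13872 genes were lower and 8.74% higher). With library totals 41 were lower, and the share of all genes called with that scaling is not given here.

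The libraries labelled siIgf2bp3 had 2 genes higher and 0 lower of 84 tested (21 at an unadjusted p below 0.05), where 2.79% of all 12918 genes were higher and 4.52% lower. DESeq2 also gave 2 higher and 0 lower. Rpl39, a small protein that lines the exit tunnel, was at 128.5 and 151.8 CPM in siNC and 190.2 and 195.7 in siIgf2bp3 (0.46 ± 0.11, adjusted p = 0.0335). Rpl37, a zinc-binding large-subunit protein, had a mean of 176.7 in siNC and 239.1 in siIgf2bp3 (0.44 ± 0.10, adjusted p = 0.0257). Both counts turned on single libraries, and shares of all genes called are not given for the reduced fits that follow. Without siNC replicate 1 there were 21 genes higher and 1 lower, without siNC replicate 2 there were 34 and 26, and without either siIgf2bp3 library there were 0 higher. The core median was 0.07 (quartiles -0.09 and 0.20; all genes 0.01).

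Set against the core genes, Rpl39l and Rpl10l separated VE from EPI in the embryoids, and so did Rpl7l1 and Rps27l with smaller differences. For each library the paralog's counts were divided by the summed counts of the core genes, and the 7 ratios were compared between 6 VE and 6 EPI libraries by a two-sided exact permutation test, adjusted over the 7; the smallest p this design can give is 0.00216. Rpl39l had a lowest, median and highest of 0.937, 1.42 and 2.09 counts per 10000 core counts in VE and 5.99, 6.98 and 7.54 in EPI (log2 ratio difference -2.30, adjusted p = 0.00379). Rpl10l had 1.77, 2.74 and 3.65 in VE and 22.3, 23.2 and 25 in EPI (-3.19, adjusted p = 0.00379). Each was lower in 6 of 6 VE libraries than in any EPI library. Rpl22l1 had 32.3, 36.7 and 39.7 in VE and 36.8, 40.8 and 41.2 in EPI. That was a difference of -0.13 with overlapping groups (adjusted p = 0.0411; 0.0938 with the replicate number as a block). Rpl7l1 was lower by less (-0.38, adjusted p = 0.00379), also without overlap. Rpl3l was also lower (-3.06, adjusted p = 0.0152), but on 0 to 16 counts in VE and 3 to 40 in EPI: the difference was -1.33 with a pseudocount of 5 in place of 0.5 (adjusted p = 0.0379) and -3.74 without VE replicate 4. Rps27l (0.40, adjusted p = 0.00379) and Rpl36al (0.56, adjusted p = 0.0202) were higher against the core; against library totals they were at -0.0043 and 0.15.

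In the other tables the same ratios are descriptions, since 2 libraries against 2 cannot give an exact p under 0.333. Untreated EPSC and EPS at 0 h come from different tables, so their levels are not compared. Rpl39l stood at 4.04 and 4.77 counts per 10000 core counts in untreated EPSC, at 1.33 and 1.41 in EPS and 0.624 and 0.614 in PrEdiff at 0 h, and at 0.868 and 0.512 in EPI-E. Rpl10l stood at 4.46 and 4.52 in EPS and 1.86 and 1.81 in PrEdiff at 0 h, at 22.1 and 17.7 in EPI-E and 3.43 and 1.94 in PrE-E, and at 9.04 and 9.94 in Virma WT and 27.1 and 25.9 in Virma cKO. Rpl10l was thus lower on the endoderm side of each comparison, and higher in Virma cKO, where PrE markers were lower. Rpl22l1 stood at 37.6 and 37.8 in EPS and 33 and 33.7 in PrEdiff at 0 h, and at 4.54 and 3.29 in Virma WT and 2.75 and 1.79 in Virma cKO.

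**Figure D4:**
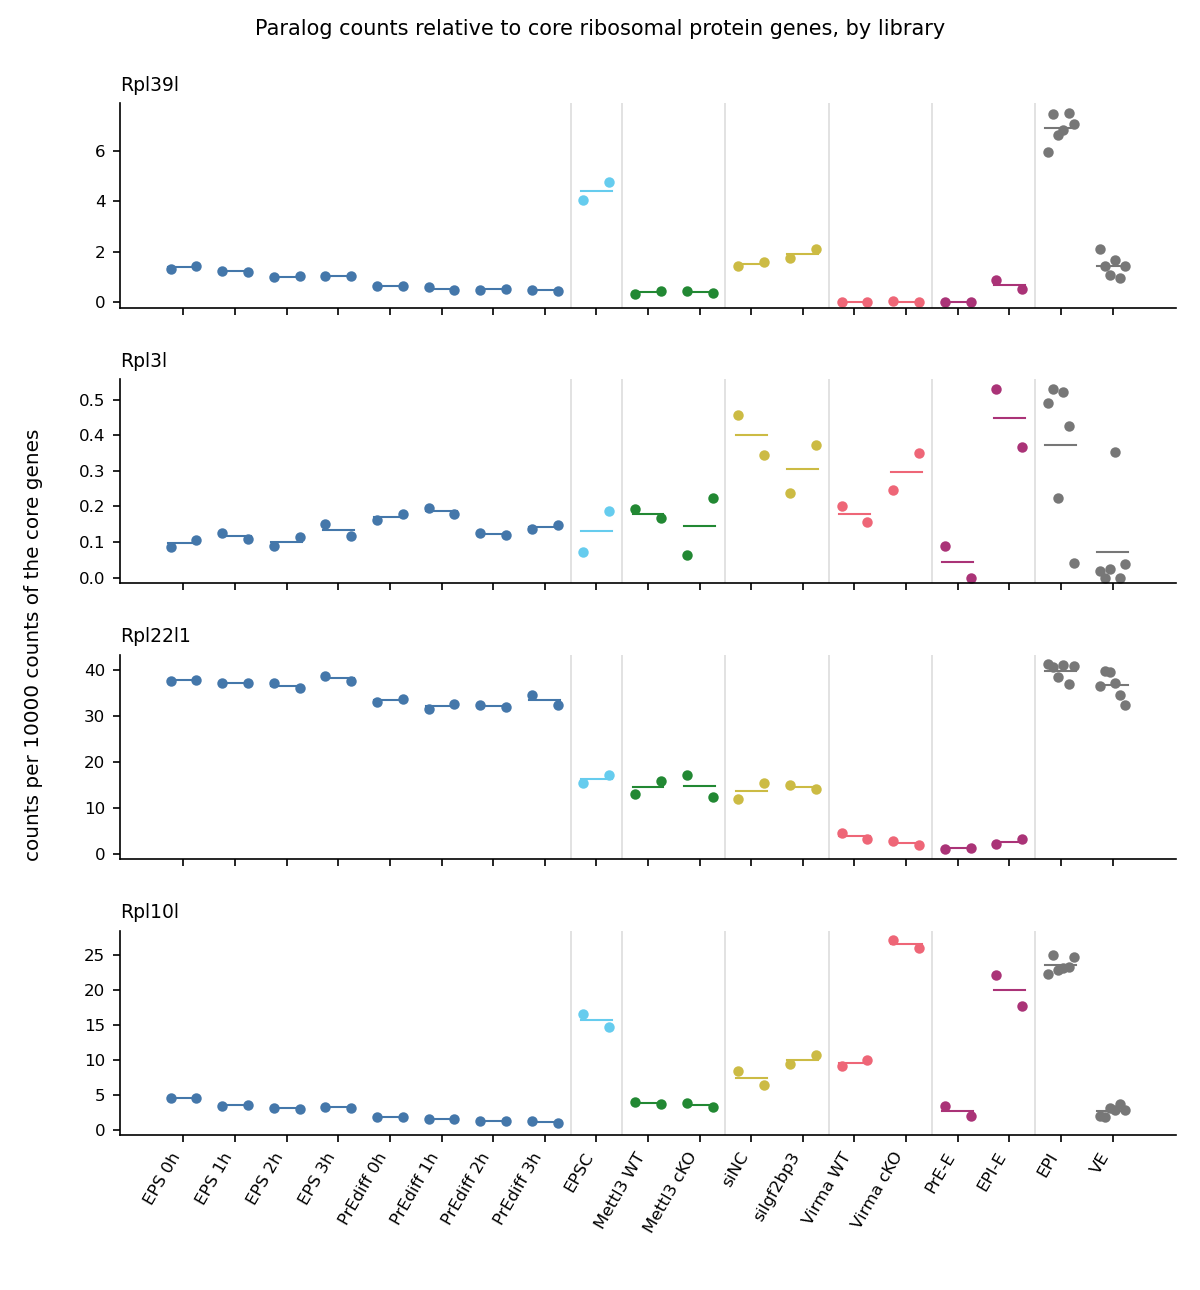
Counts of Rpl39l, Rpl3l, Rpl22l1 and Rpl10l (one panel each) per 10000 counts of the core genes (vertical axis) in every library (points) by group, with a line at each mean and vertical rules between tables. Embryoid VE lies between 0.937 and 2.09 for Rpl39l, under all EPI libraries, and Virma cKO lies at 25.9 and 27.1 for Rpl10l, above its WT.

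Genes that work beside the ribosomal proteins did not all move with them. The shares of all genes called stand for comparison: lower and higher, 18% and 15.1% in Virma cKO, 29.5% and 28.3% in PrE-E, 38% and 34.5% in VE, and 42.9% and 37.6% in PrEdiff at 0 h. They were 1.44% and 2.51% in the Mettl3 table and 4.52% and 2.79% in siIgf2bp3. Of the 19 other TOP mRNAs, 18 were lower in Virma cKO (median -0.48), among them Fau (-0.81), which encodes the small-subunit protein eS30, the nucleolar chaperone Npm1 (-0.73) and Naca (-0.72). In PrE-E 14 were lower and 1 higher (-0.36), in VE 12 and 4 (-0.17) and in PrEdiff at 0 h 14 and 4 (-0.15). In the Mettl3 table, where few genes of any kind were called, 0 of 19 were. Of 31 ribosome biogenesis factors, 30 were lower in PrE-E (-0.78), 24 lower and 1 higher in VE (-0.76) and 30 lower and 1 higher in PrEdiff (-0.88), with Polr1a, the large subunit of RNA polymerase I, at -1.60 in PrE-E. In Virma cKO 16 were lower and 6 higher (-0.23). In siIgf2bp3 6 were higher (0.18), among them Polr1a (0.51), Heatr1 (0.50) and Ddx21 (0.42). The mitochondrial ribosomal proteins, which serve a separate ribosome, gave 12 lower and 9 higher of 77 tested in Virma cKO (median -0.04), 23 and 13 in PrE-E (-0.03), 29 and 25 in VE (-0.06) and 72 and 3 in PrEdiff at 0 h (-0.56). Of 13 regulators of TOP mRNAs and ribosome production, 3 were lower and 2 higher in PrE-E and 3 and 6 in VE. Eif4ebp1, a repressor of cap-dependent translation, was lower in PrE-E (-1.57), VE (-2.08) and PrEdiff (-1.29) and higher in Virma cKO (0.44). Larp1 was lower in PrE-E (-0.89) and PrEdiff (-0.86) and higher in Virma cKO (0.25), but was not among the 3 lower in VE. Mycn, which drives ribosome production, was lower in VE (-2.55), Virma cKO (-1.09) and the libraries labelled Mettl3 cKO (-0.35) and siIgf2bp3 (-0.65). Mycn was not among the 3 lower in PrE-E. Its relative Myc was lower in PrE-E (-6.26) and PrEdiff (-2.18) and higher in siIgf2bp3 (0.66), and in VE it had 0 to 2 counts per library against 897 to 1485 in EPI.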

How the data were processed

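Values were raw counts per gene in 7 tables, as the authors deposited them, whole numbers whose totals differ between libraries. Libraries were made from total RNA (TRIzol) and sequenced on an Illumina instrument, per the labels' protocols. Per the submitters' processing notes, FastQC 0.12.1, Trim Galore, STAR 2.7.11b, Subread, DESeq2 and the mm39 build were used; the sources used here give neither annotation nor strand setting, so overlapping and antisense genes cannot be told apart. From the EPSC counts, 19 repeated symbols were left out. Groups came from sample titles, and 0 columns were left unmapped. No replicate pair matched within sampling noise, so each library counted once.

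Genes were tested on the counts as deposited with the robust quasi-likelihood test of edgeR 4.0.16 (R 4.3.3; TMM, filterByExpr), each table in its own fit with all its groups, with Benjamini-Hochberg adjustment over all genes tested and a threshold of 0.05. Each SE was derived from the fitted log2 difference and its test statistic. CPM are TMM-scaled. Slopes per hour were fitted for each state with its own intercept. The Virma and Mettl3 responses were compared in a joint fit of both tables. Fits were tested on simulated counts. Paralog ratios were log2 of paralog counts plus 0.5 over core counts, tested in embryoids with scipy 1.17.1. Floors cover counting error only.

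Members and gene lists were chosen with earlier results of these data known. The rule for named genes took Rpl39l, Rpl3l, Rpl22l1 and their parents always; up to 6 rises and 6 falls called in a comparison with a mean of at least 10 CPM and, except for slopes, groups that do not overlap; other paralogs where called; the stalk and X-linked genes as groups; and up to 3 members of a list by adjusted p. Genes named for their place in the profile, as uncalled core genes or as the extremes of a contrast were chosen after their values were seen. Not every gene the rule takes is printed. RefSeq promoters (GRCm38.p6) gave sequences; transcript lengths came from GENCODE M21. Alternatives were DESeq2 1.42.0, RLE factors, library totals, TMM without these genes, other low-count filters, the replicate block, other pseudocounts and denominators, and leaving out each library; fits of single time points and of the 0 h libraries alone, and the overlap of comparisons under other scalings, were chosen after seeing the data. The individual values of 1 core gene are not reported here.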

Additional observations from a re-analysis of the deposited data

Results flagged for a closer look

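Rpl22l1 was lowest in EPI replicate 5 of the embryoids, at 279.2 CPM, where the other 5 EPI libraries lay between 300.9 and 313.8, a gap above Dixon's critical value. Rpl3l was highest in VE replicate 4, at 2.13 CPM, where the other 5 VE libraries lay between 0 and 0.239. These were 2 of 24 groups tested, and chance flags about 1 group in 20.

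The slope in actinomycin D differed between PrEdiff and EPS for 54 ribosomal protein genes once the EPS 3 h libraries were left out, and for 3 once all 3 h libraries were left out, against 0 over all 4 times. The response to the knockout label differed between the Virma and Mettl3 tables for 64 genes.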

How the results depend on the processing

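Over all alternatives, 415 of 477 values of member counts and ratios and 1310 of 1440 values of named genes kept their direction and side of the threshold. With library totals, Virma cKO had 44 genes lower and Rpl22 at 0.02 (turned in sign), Mettl3 cKO 2 higher, PrE-E and VE 0 higher each, PrEdiff at 0 h 45 higher and 25 lower with a median of 0.05, the slopes 0 higher in EPS and 41 higher and 1 lower in PrEdiff, and the Virma minus Mettl3 response 41 lower; Rps27l and Rpl36al ratios went to -0.0043 and 0.15. DESeq2 gave 0 higher for Mettl3 cKO and PrE-E and 29 for the EPS slope. RLE factors gave 0 higher for Mettl3 cKO and PrE-E. Without a low-count filter 7 were higher for siIgf2bp3 and 2 for PrE-E. The 0 h libraries alone gave 20 higher. Single times against 0 h gave 83, 83 and 83 higher in EPS at 1, 2 and 3 h; for the difference between states 80, 77 and 1 were lower, and 79 were higher at 3 h. Without the 3 h libraries 83 were higher in EPS and 3 lower in the difference, and without the EPS 3 h libraries 83 and 54. Except for the single times, shares of all genes called are not given here for the alternative fits of this section.

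Leaving out each library gave, for genes higher, 1 to 1 for Virma cKO, 0 to 0 for Mettl3 cKO, 0 to 34 for siIgf2bp3, 0 to 3 for PrE-E, 2 to 4 for VE, 10 to 12 for PrEdiff at 0 h, 1 to 65 for the EPS slope and 21 to 78 for the PrEdiff slope. For genes lower it gave 57 to 74 for Virma cKO, 0 to 26 for siIgf2bp3, 46 to 59 for PrE-E, 62 to 70 for VE, 58 to 62 for PrEdiff at 0 h and 47 to 78 for the Virma minus Mettl3 response. The Rpl22l1 ratio ran from -0.15 to -0.09, Rpl39l from -2.42 to -2.19, Rpl10l from -3.29 to -3.08 and Rpl3l from -3.74 to -2.68.

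Same-numbered libraries of different groups deviated without relation (r -0.093 to 0.028 over 16 pairs), so the numbers do not pair them. The replicate block gave 0 higher for Mettl3 cKO, 1 lower for siIgf2bp3 and a Rpl22l1 ratio of -0.13 (adjusted p = 0.0938). The causes were not tested. With 2 libraries in most groups, small differences rest on edgeR's pooled spread.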
